A study of Mus musculus with 6 samples.

Results

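The genes described here are the ezrin, radixin and moesin family (Ezr, Rdx and Msn), the PDZ scaffolds that bind it (Slc9a3r1, which encodes NHERF1, Slc9a3r2, which encodes NHERF2, and Pdzk1), the membrane sialomucin gene Podxl and the related tumour suppressor gene Nf2. They were chosen by gene symbol, and all 8 were found among the 52550 genes of the deposited expression table. The table holds RNA sequencing of cells from livers of CD-1 mouse embryos of genotype Sox9-GFP, in which green fluorescent protein reports expression of Sox9, a transcription factor of developing bile duct cells (cholangiocytes). Both stages, E16.5 and E18.5, were sampled by 3 libraries, called replicates A, B and C and no treatment was applied. The sample labels give the stages as embryonic days 16 and 18. Each library came from a pool of livers, so variation between embryos was not measured, and p-values measure the spread between these pools. In all pools, cells bearing haematopoietic lineage antigens were first removed with magnetic beads and the GFP-positive cells were then collected by flow sorting. The gate follows the reporter and not cell identity, so the libraries could hold other GFP-positive or carried-over cells.

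Ezrin, radixin and moesin link the plasma membrane to cortical actin. Each folds on itself until phosphoinositide binding and phosphorylation of a threonine near the carboxyl terminus open it, after which the amino-terminal FERM domain binds membrane proteins and the tail binds actin. NHERF1 and NHERF2 hold the FERM domain at one end and transporters and receptors at their PDZ domains, PDZK1 is a scaffold with several PDZ domains, and podocalyxin is an anti-adhesive sialomucin that joins the apical complex through NHERF and ezrin. Merlin, the product of Nf2, shares the FERM fold and acts in the Hippo pathway. In the developing bile duct, apical moesin and NHERF1 are known signs of polarity at the start of lumen formation.

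The regulated threonine is what the family has in common, so the stretch of coding sequence around it is shown first, from the GENCODE vM21 transcripts, 5′ to 3′, with the threonine codon in capitals.
Ezr: gacaagtataagACGctgcggcaaatc
Rdx: gataagtacaagACCcttcggcagatt
Msn: gacaaatacaagACCctgcgccagatc
The codon is number 567 of 586 in Ezr, 564 of 583 in Rdx and 558 of 577 in Msn. Ezr and Rdx differed at 6 of the 27 bases, and Msn differed from each of them at 5. The same motif was not found in the 596 codons of Nf2. Over the whole coding sequence, identity of aligned bases was 69.9% between Ezr and Rdx, 73.2% between Ezr and Msn and 71.5% between Rdx and Msn. It was lower between Nf2 and the family, from 59.5% to 62.1%, and it was 62.3% between Slc9a3r1 and Slc9a3r2. No stretch of 50 bases was shared among the transcripts of Ezr, Rdx and Msn, so reads of that length or longer separate them.

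The genes lie at separate places in the mouse genome (GRCm38, GENCODE vM21). Ezr (ENSMUSG00000052397.8) is on the minus strand at chr17:6738041-6782784, Rdx (ENSMUSG00000032050.17) on the plus strand at chr9:52047173-52088735, and Msn (ENSMUSG00000031207.16) on the plus strand at chrX:96096042-96168552. Slc9a3r1 (ENSMUSG00000020733.3) is on the plus strand at chr11:115163341-115181181, and Slc9a3r2 (ENSMUSG00000002504.14) is on the minus strand at chr17:24639286-24650327. Pdzk1 (ENSMUSG00000038298.14) is on the plus strand at chr3:96829284-96870926, Podxl (ENSMUSG00000025608.9) on the minus strand at chr6:31519488-31563981, and Nf2 (ENSMUSG00000009073.16) on the minus strand at chr11:4765845-4849536. All are protein-coding, and the values below count reads over their exons. Pdzk1 is the uncertain one, because 41.7% of its exon bases are shared with genes on the opposite strand, 37.5% with Gpr89 alone. The library kit keeps the strand, but whether the counting used it is not given in the sources used here. For the other genes the shared portion is at most 2.15% of exon bases.

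Promoter windows (250 bases before to 50 bases after the RefSeq start, GRCm38.p6) were listed for 7 of the 8 genes, Podxl being the one with none. Those of Ezr and Slc9a3r2, which rose between the stages, and of Slc9a3r1, the paralog of Slc9a3r2 that did not, are shown 5′ to 3′ on the strand of the gene, with the GC box letters GGGCGG, read on either strand, in capitals. The windows are chr17:6782731-6783030 (minus strand) for Ezr, chr17:24650256-24650555 (minus strand) for Slc9a3r2 and chr11:115163091-115163390 (plus strand) for Slc9a3r1.
Ezr: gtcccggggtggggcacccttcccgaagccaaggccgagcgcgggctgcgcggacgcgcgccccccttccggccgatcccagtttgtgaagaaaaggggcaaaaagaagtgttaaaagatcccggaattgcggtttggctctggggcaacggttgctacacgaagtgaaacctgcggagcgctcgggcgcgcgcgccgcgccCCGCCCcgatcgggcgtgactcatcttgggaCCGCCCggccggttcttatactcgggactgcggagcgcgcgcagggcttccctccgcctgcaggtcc
Slc9a3r2: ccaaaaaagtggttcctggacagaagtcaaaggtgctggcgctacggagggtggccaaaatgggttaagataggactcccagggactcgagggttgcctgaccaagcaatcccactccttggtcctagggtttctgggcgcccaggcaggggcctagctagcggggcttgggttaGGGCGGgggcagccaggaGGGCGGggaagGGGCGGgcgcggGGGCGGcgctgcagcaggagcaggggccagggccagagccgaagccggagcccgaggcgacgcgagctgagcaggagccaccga
Slc9a3r1: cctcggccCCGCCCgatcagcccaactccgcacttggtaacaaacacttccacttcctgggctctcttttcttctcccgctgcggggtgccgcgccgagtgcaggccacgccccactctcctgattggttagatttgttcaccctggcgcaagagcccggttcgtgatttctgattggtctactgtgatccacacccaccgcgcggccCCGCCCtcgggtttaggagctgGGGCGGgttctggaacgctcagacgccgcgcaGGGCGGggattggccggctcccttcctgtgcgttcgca
All 3 windows were GC rich, with a GC content of 68% in Ezr, 67.3% in Slc9a3r2 and 64.3% in Slc9a3r1, against a median of 52.7% over the 32851 windows of the table. They held 2, 4 and 4 GC boxes, a motif present in 35.7% of all windows. Slc9a3r1 also held 3 CCAAT boxes (letters CCAAT, either strand, in 37.4% of all windows), none of which shared bases with a GC box, while Ezr and Slc9a3r2 held 0. Rdx and Msn, which were not called between the stages, also held 0, and Pdzk1 and Nf2 held 2 each. The count of CCAAT boxes thus did not separate the genes that rose from the others. Among the 7 windows read, 0 held TATAAA and 0 held the TEAD letters GGAATG, which occur in 13.6% and 14.7% of all windows. Rdx, Slc9a3r2, Pdzk1 and Nf2 each had 2 windows listed, of which only the one nearest the annotated gene start was read. A match of letters describes the window and is not a measured binding site.

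Expression is given as TPM, a relative abundance of transcripts scaled by gene length and library total, so that levels can be compared between genes. Reads recovered from the TPM totalled 23193537 to 26206374 per E16.5 library and 13093937 to 22643868 per E18.5 library, and intervals for single libraries cover counting error only. Stages were compared with limma on log2(TPM + 1) for the 22452 genes whose mean reached 1 TPM, and the p-values were adjusted over all of these by the method of Benjamini and Hochberg. A gene was called at an adjusted p under 0.05. Of the 8 genes, 3 were called higher at E18.5 (Podxl, Ezr and Slc9a3r2), where 26.0% of all genes tested were called higher. None was called lower, against 5.22% of all genes. For 6 of the 8 genes every value of one stage lay beyond every value of the other, which also held for 53.3% of all genes. The counts over the 8 genes are thus of the order of those over all genes, and nothing particular to the set is read from them. The median log2 fold change was 0.23 for the 8 genes and 0.42 for all genes tested, and a single fold change is therefore to be read against a general shift of 0.42. With 3 libraries against 3, the exact two-sided permutation test of a single gene allows no p below 0.1.

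**Figure D1:**
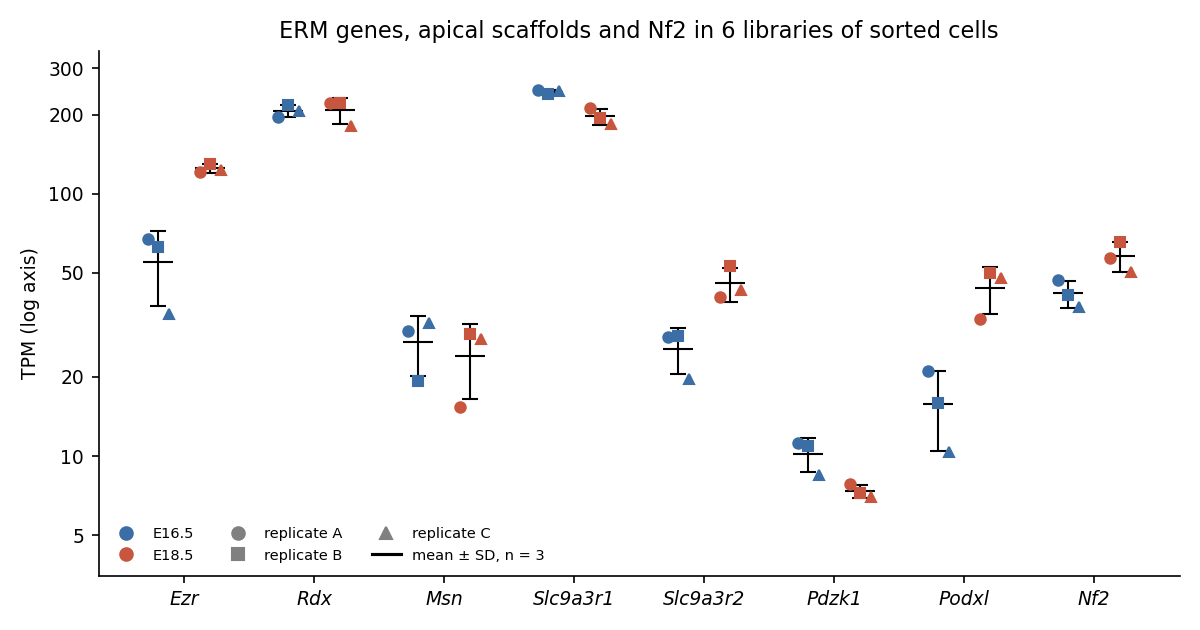
TPM on a log axis of the 8 genes in each library, E16.5 in blue and E18.5 in red, with circles, squares and triangles for replicates A, B and C and bars for the mean ± SD (n = 3). Rdx and Slc9a3r1 sit near 200 TPM at both stages, Ezr rises from 34.9 to 67.0 TPM at E16.5 to 121 to 130 TPM at E18.5, and Pdzk1 is the lowest gene.

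Ezr, the family member typical of epithelial microvilli, had, in the order A, B and C, 67.0, 62.7 and 34.9 TPM at E16.5, against 121, 130 and 123 TPM at E18.5. The later stage was higher in every library, and replicate C at E16.5 was the low one. Counting error does not span that gap, since the 95% intervals were 32.6 to 37.2 TPM for replicate C and 64.0 to 70.0 TPM for replicate A. The mean went from 54.8 ± 17.4 TPM to 125 ± 4.76 TPM (SD, n = 3 each), a ratio of 2.27. The log2 fold change was 1.22 (SE 0.24, 95% interval 0.66 to 1.79) with a limma adjusted p of 0.0152. This was a larger rise than that of 92.0% of all genes tested. At E16.5 Ezr stood above 89.4% of the 21819 protein-coding genes listed, and at E18.5 above 95.9%. Without E18.5 replicate A the limma adjusted p of Ezr was 0.0539, at a log2 fold change of 1.25.

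Rdx, the member best known from the bile canaliculi of hepatocytes, was the most abundant of the family at both stages. It had 196, 217 and 207 TPM at E16.5, against 221, 222 and 180 TPM at E18.5. The stages overlapped, with the lowest value of all in replicate C at E18.5. The means were 207 ± 10.4 and 208 ± 23.8 TPM, and the log2 fold change was 0.0027 (SE 0.12, 95% interval -0.29 to 0.29, limma adjusted p = 0.988). Rdx stood above 98.3% of protein-coding genes at E16.5 and above 98.2% at E18.5. Its fold change lay 0.41 below the median of all genes, and 22.2% of the genes tested had a lower one.

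Msn, the member most abundant in endothelium and leukocytes, was the lowest of the family. Its values were 29.9, 19.2 and 32.2 TPM at E16.5, against 15.3, 29.1 and 27.9 TPM at E18.5. One library was low at each stage, replicate B at E16.5 and replicate A at E18.5, and the stages overlapped. The means were 27.1 ± 6.90 and 24.1 ± 7.63 TPM, and the log2 fold change of -0.18 (SE 0.29, 95% interval -0.87 to 0.51) had a limma adjusted p of 0.648. The interval holds changes in both directions, and without E18.5 replicate A the fitted log2 fold change was 0.10. The spread between libraries of one stage exceeded counting error, as the 95% intervals at E16.5 were 18.0 to 20.5 TPM for replicate B and 28.5 to 31.4 TPM for replicate A (664 to 1623 reads per library over both stages).

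Within the family, the share of Ezr was higher in every E18.5 library. Ezr made up 22.8%, 21.0% and 12.7% (A, B, C) of the summed TPM of Ezr, Rdx and Msn at E16.5 and 33.8%, 34.1% and 37.2% at E18.5. The stages did not overlap. The mean share was 18.8% ± 5.37 at the earlier and 35.0% ± 1.87 at the later stage (SD, n = 3 each). Rdx held the largest share in every library, 71.7% ± 4.35 at E16.5 and 58.2% ± 3.77 at E18.5. Msn held 9.47% ± 2.74 and 6.79% ± 2.20, with overlapping stages. The order of shares was the same in all libraries. The sum of the family was 288 ± 13.3 TPM at E16.5, against 356 ± 24.6 TPM at E18.5, while the means of Rdx and Msn differed between the stages by less than their SD.

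**Figure D2:**
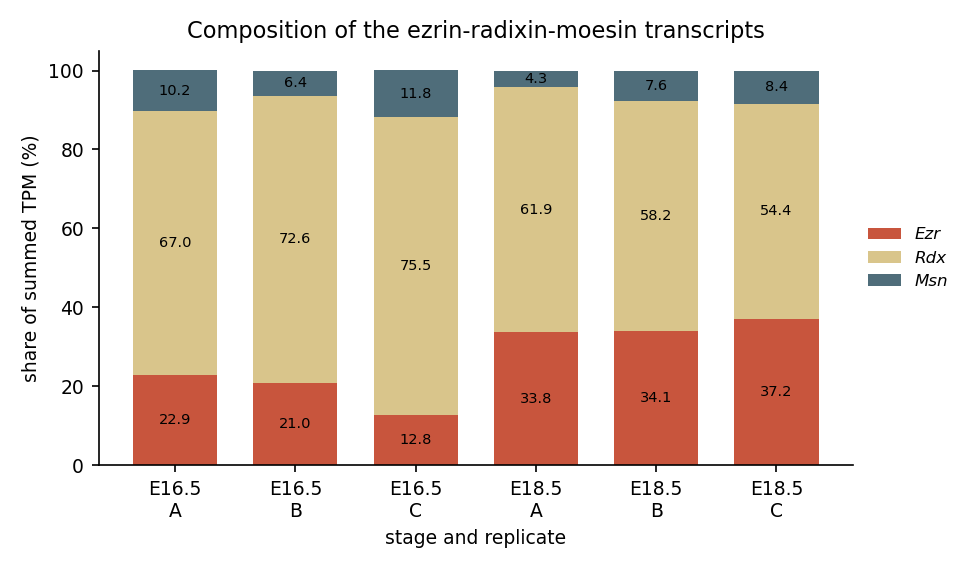
Share of the summed TPM of Ezr, Rdx and Msn (percent, stacked to 100) in each library, ordered by stage and replicate. The Ezr share is at most 22.8% in the 3 E16.5 libraries and at least 33.8% in the 3 E18.5 libraries, while Rdx remains the largest share in all 6.

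Ratios of 2 genes within a library do not depend on how libraries are scaled to each other, and 5 such pairs were compared. The ratio of Rdx to Ezr was 2.93, 3.46 and 5.92 at E16.5 and 1.83, 1.71 and 1.46 at E18.5. All E18.5 ratios were below all E16.5 ratios, with a difference of -1.24 on the log2 scale (exact permutation p = 0.1, the smallest possible, and 0.125 after adjustment over the 5 pairs). The ratio of Msn to Ezr had a mean of 0.559 ± 0.323 at the earlier and 0.193 ± 0.0567 at the later stage, a log2 difference of -1.43, again without overlap and at the same smallest exact permutation p of 0.1 (adjusted 0.125). The ratio of Msn to Rdx overlapped between the stages, at 0.132 ± 0.0378 and 0.119 ± 0.0442 (exact permutation p = 0.6, adjusted 0.6).

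Slc9a3r1, the NHERF1 gene, was the most abundant of the scaffold genes and stood above 98.7% of protein-coding genes at E16.5. It had 247, 240.0 and 246 TPM at E16.5, against 212, 194 and 185 TPM at E18.5. All E18.5 values were lower, and the E16.5 libraries lay close together. The means were 244 ± 3.89 and 197 ± 13.8 TPM, a ratio of 0.806. The log2 fold change of -0.31 (SE 0.10, 95% interval -0.56 to -0.07) had a limma adjusted p of 0.0560, so the gene was not called. The direction was the same under all 15 alternative settings, with a log2 fold change from -0.77 to -0.27, and 5 of these passed the threshold.

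Slc9a3r2, the NHERF2 gene, had 28.4, 28.7 and 19.7 TPM at E16.5, against 40.4, 53.1 and 42.9 TPM at E18.5. The stages did not overlap, and replicate C at E16.5 was again the lowest library. The means were 25.6 ± 5.09 and 45.5 ± 6.77 TPM, a ratio of 1.78, and the log2 fold change was 0.81 (SE 0.19, 95% interval 0.37 to 1.26, limma adjusted p = 0.0217). The call was lost with median-of-ratios scaling between libraries (0.0795), with quantile normalization (0.0578) and without E18.5 replicate A (0.0578) or B (0.0627), these being limma adjusted p-values. Reads were not recovered for this gene, because its identifier has another version in the annotation used, so no counting interval is given.

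The scaffold paralogs were also compared within each library. The ratio of Slc9a3r2 to Slc9a3r1 was 0.115, 0.120 and 0.0801 in the E16.5 libraries (A, B, C), against 0.190, 0.273 and 0.232 at E18.5. The later libraries all had the higher ratio. The ratio of the geometric means was 2.22, a log2 difference of 1.15 (exact permutation p = 0.1, the smallest possible, adjusted 0.125 over the 5 pairs). Slc9a3r1 remained the more abundant of the pair in every library. The ratio of Slc9a3r1 to Ezr, the scaffold to its FERM ligand, was 3.69, 3.83 and 7.06 at the earlier stage and 1.76, 1.496 and 1.498 at the later one, a log2 difference of -1.56 without overlap (exact permutation p = 0.1, adjusted 0.125).

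Pdzk1, whose product scaffolds apical transporters and the lipoprotein receptor SCARB1, was the lowest of the genes. It had 11.2, 10.9 and 8.50 TPM at E16.5, against 7.81, 7.21 and 6.99 TPM at E18.5. The stages did not overlap, but the gap between the nearest libraries was 8.50 against 7.81 TPM, and their 95% counting intervals (7.46 to 9.64 and 6.740 to 9.004 TPM) did overlap. The log2 fold change of -0.42 (SE 0.18, 95% interval -0.84 to -0.00068) had a limma adjusted p of 0.107. The gene rested on 101 to 343 reads per library, and the bases it shares with Gpr89 on the opposite strand bear on these reads to an extent that was not tested.

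Podxl, which encodes podocalyxin, had the largest rise of the 8 genes. It was measured at 21.0, 15.9 and 10.4 TPM at E16.5, against 33.3, 49.6 and 47.7 TPM at E18.5. The stages did not overlap, and the lowest library was once more replicate C at E16.5. The means were 15.8 ± 5.32 and 43.5 ± 8.88 TPM, a ratio of 2.76, with a log2 fold change of 1.44 (SE 0.27, 95% interval 0.80 to 2.08, limma adjusted p = 0.0142). That exceeded the change of 95.4% of all genes tested. Podxl was the single gene of the 8 called under all 15 alternative settings, with limma adjusted p from 0.00886 to 0.0449.

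Nf2, the merlin gene, had 46.8, 41.2 and 37.0 TPM at E16.5, against 56.8, 65.5 and 50.4 TPM at E18.5. The values were higher at E18.5 without overlap. The means were 41.7 ± 4.89 and 57.6 ± 7.57 TPM, and the log2 fold change of 0.46 (SE 0.15, 95% interval 0.11 to 0.80) had a limma adjusted p of 0.0510. This change was 0.04 above the median of all genes, and 53.5% of the genes tested had a lower one.

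Because the median gene was higher at E18.5, the genes were also compared after median-of-ratios scaling, which brings the median log2 fold change of all genes to 0.02. On that scale Podxl (1.01, limma adjusted p = 0.0318) and Ezr (0.78, 0.0367) remained higher, 2 of 8 where 6.80% of all genes were called higher. Rdx (-0.45, 0.0478), Slc9a3r1 (-0.77, 0.0137) and Pdzk1 (-0.83, 0.0157) were called lower, 3 of 8 where 10.4% of all genes were called lower. Slc9a3r2 had a log2 fold change of 0.37 (0.0795), Msn -0.62 (0.217) and Nf2 0.01 (0.947). The order of the 8 genes by fold change was the same on both scales, and none of the 3 lower calls was made in the comparison of the TPM as deposited given above. Slc9a3r1 was also called lower under 4 other settings, among them a minimum mean of 5 TPM and a replicate block (limma adjusted p = 0.0484 for both), and Pdzk1 under quantile normalization (0.0148) and voom (0.0476). Which scale matches RNA content per cell was not measured.

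**Figure D3:**
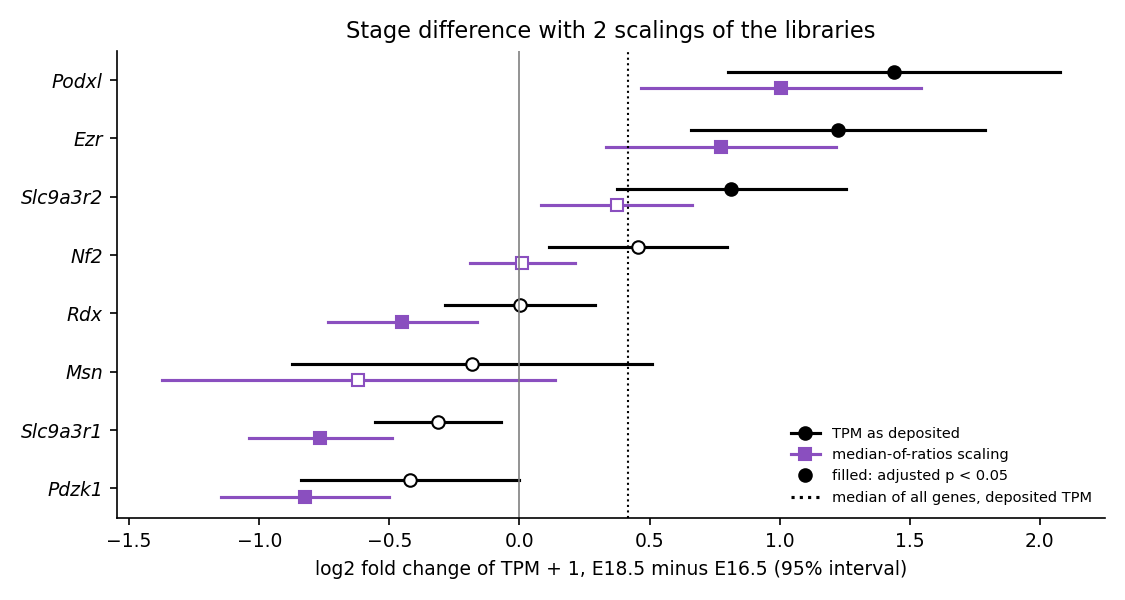
Log2 fold change of TPM + 1 (E18.5 minus E16.5) with its 95% interval for each of the 8 genes, as deposited (black circles) and after median-of-ratios scaling (purple squares), filled where the limma adjusted p is under 0.05; the dotted line is the median of all genes as deposited, 0.42. Podxl and Ezr are filled to the right of 0 on both scales, and Rdx, Slc9a3r1 and Pdzk1 are filled to the left of 0 after scaling only.

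Across the 6 libraries, Ezr, Slc9a3r2 and Podxl had like profiles. Pearson's r of log2(TPM + 1) was 0.975 between Ezr and Slc9a3r2, 0.971 between Ezr and Podxl and 0.971 between Slc9a3r2 and Podxl. These values describe 6 libraries of 2 stages and are set largely by the stage difference, and Ezr had r above 0.9 with 5357 of the 15352 genes compared. Slc9a3r1 and Pdzk1 followed each other at 0.856, and Rdx and Msn stood at -0.50. The genes with the profile most like Ezr were Itgb4, a laminin receptor subunit (0.999), Olfr1372-ps1 (0.999) and Mllt6 (0.999). For Podxl they were Fzd1, a Wnt receptor (0.998), Cebpz (0.998) and Ptprm (0.998), and for Slc9a3r2 they were Cdc37l1, Nup153 and Rsrc1 (0.999 each). Nf2 was most like Brd9, Med1 and Rnf113a2 (0.999, 0.999 and 0.998). Few genes followed Rdx or Msn, with 40 and 39 above 0.9. Those nearest to Rdx were Gm18584 (0.990), Chsy3 (0.988) and Ap3m1-ps (0.976), and those nearest to Msn were Gm15775 (0.994), Gm24494 (0.969) and Tbkbp1 (0.968). Slc9a3r1 was nearest to Slc17a9, Sec61b and Serpina6 (0.994, 0.994 and 0.990), and Pdzk1 to Gm44482, Slc39a11 and Trap1 (0.979, 0.966 and 0.965).

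The genes that act on or with the 8 were read from 6 further lists. Their counts are to be read against all genes tested, of which 26.0% were called higher and 5.22% lower at E18.5. After median-of-ratios scaling these shares were 6.80% and 10.4%. The same shares apply to the marker counts below. Among 12 kinases and regulators of ezrin, radixin and moesin, 3 rose and 1 fell, and the median log2 fold change was 0.20. The kinase genes Slk (0.45, limma adjusted p = 0.0317), Rock1 (0.43, 0.0358) and Prkci (0.83, 0.0165) rose. Slk and its relative Stk10, a lymphocyte kinase gene, encode enzymes known to phosphorylate the regulated threonine. Stk10 went from 22.01 ± 5.51 to 13.6 ± 1.37 TPM (-0.64, 0.0522) and was not called. Prkca, a conventional protein kinase C, fell from 60.4 ± 24.9 to 11.95 ± 2.01 TPM (-2.18, limma adjusted p = 0.00890). Its E16.5 values of 56.4, 37.8 and 87.0 TPM in A, B and C had the order of the megakaryocyte marker sums given below, whose part in them was not tested. By the mean over both stages, the most abundant of this list were Arhgdia at 440 and 460 TPM (0.06, limma adjusted p = 0.735), and Ppp1r12a, a myosin phosphatase subunit, at 100.2 and 99.2 TPM (-0.02, 0.929). With median-of-ratios scaling none of the 12 was called higher and 5 were called lower.

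Of 20 membrane partners of ezrin, radixin, moesin and the NHERF scaffolds, 16 passed the minimum of 1 TPM, 1 rose and none fell, and the median log2 fold change was 0.35. The one that rose was Pdgfra, a growth factor receptor of mesenchymal cells, from 4.69 ± 1.71 to 11.0 ± 3.96 TPM (1.08, limma adjusted p = 0.0433). The highest by the mean over both stages were the proteoglycan gene Sdc2 at 78.3 and 89.3 TPM (0.18, 0.384) and the adhesion gene Icam1 at 66.4 and 95.8 TPM (0.41, 0.593). After median-of-ratios scaling 1 of the 16 was called, Slc26a6, an anion exchanger, as lower (-0.75, limma adjusted p = 0.0469).

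Of 9 tested PDZ adaptors related to the scaffolds, 4 rose and 1 fell. Shank2, a large scaffold of the apical membrane and of synapses, rose from 74.2 ± 20.2 to 228 ± 19.0 TPM (1.64, limma adjusted p = 0.00852), and Gipc1, a myosin VI adaptor, fell from 143 ± 33.4 to 80.1 ± 17.3 TPM (-0.82, 0.0330). Both were called in the same direction after median-of-ratios scaling, where 2 of the list rose and 2 fell. The part of other cells in the fall of Gipc1 was not tested.

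Around merlin, 14 of 15 partners and Hippo pathway genes rose, where 26.0% of all genes were called higher, and none fell. The median log2 fold change was 0.74. Wwc1, which encodes KIBRA, a merlin partner upstream of the LATS kinases, had the largest rise, from 76.2 ± 20.3 to 194 ± 14.8 TPM (1.37, limma adjusted p = 0.0104). Amot, an angiomotin that binds merlin, went from 90.4 ± 16.1 to 135 ± 17.6 TPM (0.58, 0.0381). The one gene not called was the Hippo kinase gene Stk4 (-0.35, limma adjusted p = 0.181). Many of these rises lie near the general shift, since with median-of-ratios scaling 6 of the 15 were called higher and 1, Stk4, lower (-0.80, 0.0478), at a median of 0.29.

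The microvillus and brush border list held 18 genes, of which 8 rose and 2 fell, and the median log2 fold change was 0.43, close to that of all genes. Eps8, an actin capping and bundling protein of microvilli, rose from 4.01 ± 1.36 to 12.3 ± 1.56 TPM (1.44, limma adjusted p = 0.0124). Cdhr2, a protocadherin that links microvillus tips, fell from 87.5 ± 8.03 to 10.7 ± 5.05 TPM (-3.00, 0.00601), and the bundling gene Pls1 fell from 97.9 ± 22.2 to 34.7 ± 4.08 TPM (-1.45, 0.00830). Megakaryocyte markers and 6 of 10 hepatoblast markers, given below, fell as well, and the part of these cells in the falls of Cdhr2 and Pls1 was not tested. By the mean over all 6 libraries the highest genes were Eps8l2 (0.59, limma adjusted p = 0.0214) and the myosin gene Myo1e (0.95, 0.0126). With median-of-ratios scaling 3 were called higher and 3 lower.

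Of 22 tested relatives that carry a FERM domain, 13 rose and 3 fell, at a median log2 fold change of 0.79. Epb41l4a had the largest rise, from 9.76 ± 5.02 to 36.8 ± 6.47 TPM (1.94, limma adjusted p = 0.0164). Fermt3, the kindlin of blood cells and platelets, fell from 718 ± 334 to 54.9 ± 35.0 TPM (-3.76, 0.00890), and Tln1, the integrin activator talin 1, from 734 ± 250.1 to 200.3 ± 44.6 TPM (-1.83, 0.0105). These abundant relatives are high in platelets and their precursors, and the megakaryocyte markers given below fell alongside them, with a part in these values that was not tested. After median-of-ratios scaling 7 of the list were called higher and 3 lower.

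**Figure D4:**
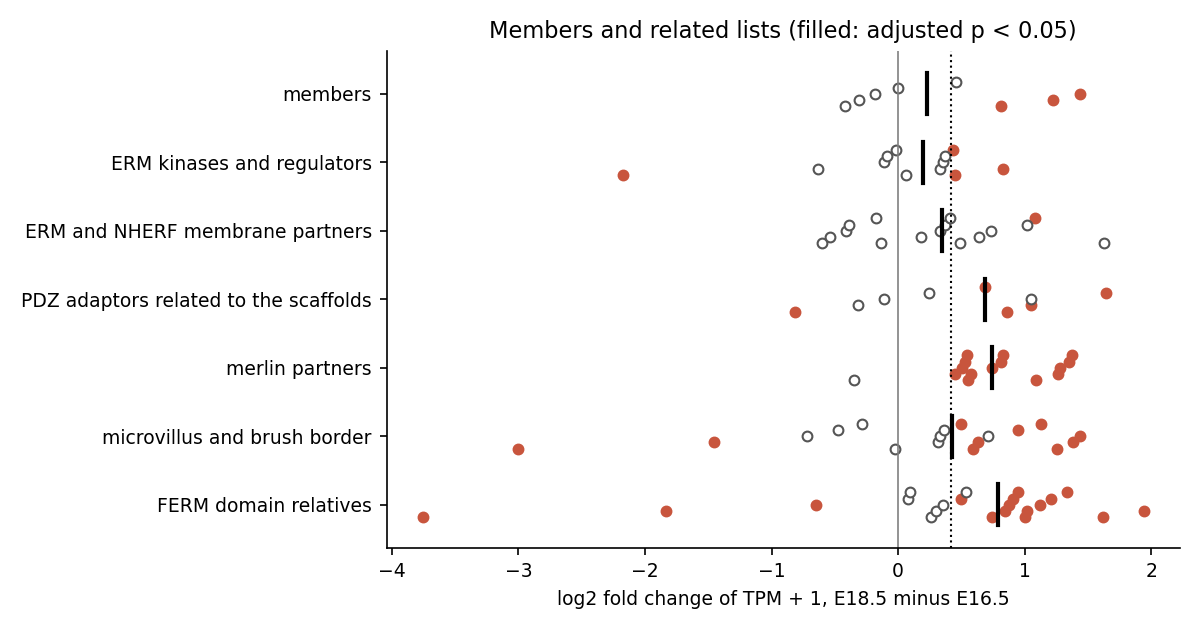
Log2 fold change of TPM + 1 (E18.5 minus E16.5) of each tested gene in the set of 8 and in the 6 related lists, filled where the limma adjusted p is under 0.05, with a vertical bar at each list's median and a dotted line at the median of all genes, 0.42. The merlin partners lie at or above the dotted line except Stk4, the 8 genes spread from -0.42 to 1.44, and the far left points are Fermt3, Cdhr2, Prkca, Tln1 and Pls1.

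The labelled cell type was checked on markers of cholangiocytes and of other cells the sort could hold. Sox9 was present in all libraries, at 69.5 to 186 TPM at E16.5 and 353 to 466 TPM at E18.5. The summed TPM of the 10 cholangiocyte markers was 2329, 2868 and 947 in the E16.5 libraries (A, B, C) and 12450, 14700 and 8678 in those of E18.5, and 9 of the 10 rose (5 after median-of-ratios scaling). Spp1 alone had 1278, 1767 and 469 TPM of the E16.5 sums and 10010, 12120 and 6629 TPM of the E18.5 sums. Hepatoblast markers remained high at both stages, with sums of 175900 to 223100 TPM at E16.5 and 41000 to 100400 TPM at E18.5, and 6 of 10 fell (5 after that scaling). In such bulk libraries, fewer cells of a type and less RNA per cell cannot be told apart. The part of hepatoblasts in the values of Rdx, Slc9a3r1 and Pdzk1 was not tested.

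Replicate C at E16.5 had the lowest cholangiocyte sum of all libraries and also the lowest Ezr, Slc9a3r2, Podxl and Nf2. Without it the log2 fold changes were 0.93 for Ezr, 0.64 for Slc9a3r2 and 1.19 for Podxl, all still called (limma adjusted p = 0.0116, 0.0376 and 0.0241). That of Nf2 was 0.38 (0.121), and Nf2 was not called in either fit. Markers of mesothelium, which is rich in ezrin and podocalyxin, rose alongside Ezr, Slc9a3r2 and Podxl, with 7 of 7 tested higher under both scalings. Their sums were 4.80 to 13.3 TPM at E16.5 and 49.3 to 103 TPM at E18.5. Podxl and Ezr had the order of these sums within each stage (C, B, A at E16.5 and A, C, B at E18.5, lowest to highest). Cholangiocyte sums, of which Spp1 was the largest part, had another order, with replicate C lowest at both stages. Single markers differed. Sox9 and Epcam had the order of the cholangiocyte sums, whereas Krt19 ran C, B, A at E16.5 and A, B, C at E18.5, lowest to highest. Counting intervals of neighbouring libraries overlapped for Ezr at both stages and for Podxl at E18.5. Msln, the mesothelin gene, rose from 1.04 ± 1.44 to 30.0 ± 13.6 TPM (limma adjusted p = 0.00890). Mesenchymal markers had sums of 274 to 430 TPM at E16.5 and 566 to 1006 TPM at E18.5, and 4 of 10 rose (1 after median-of-ratios scaling). Among the endothelial markers, whose sums are given below, Stab2 also had the order of Podxl within each stage. It had 50.9, 32.7 and 15.4 TPM at E16.5 (A, B, C), against 39.2, 68.7 and 65.1 TPM at E18.5. Pecam1 had another order, with 30.8, 15.5 and 33.2 TPM at E16.5, against 9.48, 19.1 and 21.4 TPM at E18.5. The part of mesothelial, mesenchymal and endothelial cells in the values of Ezr, Slc9a3r2 and Podxl was not tested.

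Within each stage Msn had the order of replicates B, A, C at E16.5 and A, C, B at E18.5, lowest to highest. The summed megakaryocyte, endothelial and leukocyte markers all had this order. Counting intervals of the 2 higher Msn libraries overlapped at each stage, so which of these was highest is not resolved. Megakaryocyte markers fell in 8 of 8 under both scalings. Their sums were 5559, 3191 and 9322 TPM in the E16.5 libraries (A, B, C), against 85.9, 737 and 208 TPM at E18.5. Between the stages Msn showed no fall of that size. Its mean was 27.1 TPM for the earlier stage, against 24.1 TPM for the later one, and it was not called. Endothelial sums were 420, 251 and 480 TPM at E16.5, against 126, 256 and 250 TPM at E18.5, with 1 of 10 markers higher and 1, Vwf, lower. Vwf, the von Willebrand factor gene, which megakaryocytes also express, had 221, 128 and 339 TPM of the E16.5 sums. Without it the sums were 199, 123 and 141 TPM at E16.5, against 115, 222 and 229 TPM at E18.5. They were still lowest in the libraries where Msn was lowest, and the order of the other libraries changed. Leukocyte sums were 311, 202 and 454 TPM at E16.5, against 106, 239 and 127 TPM at E18.5, with 2 of 10 higher and 2, Coro1a and Itgb2, lower. Without Coro1a, Itgb2 and Lyz2, which were chosen after their values were seen, they were 46.8, 49.2 and 48.1 TPM at E16.5, against 84.8, 156 and 102 TPM at E18.5. These sums had the order of Msn at E18.5 but not at E16.5. Erythroid sums were 253 to 313 TPM at E16.5 and 108 to 580 TPM at E18.5, with 1 of 8 lower. The part of these cells in the level of Msn was not tested. The beads used for depletion were directed at haematopoietic lineage antigens. Those the authors list include none encoded by a megakaryocyte or endothelial marker used here.

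**Figure D5:**
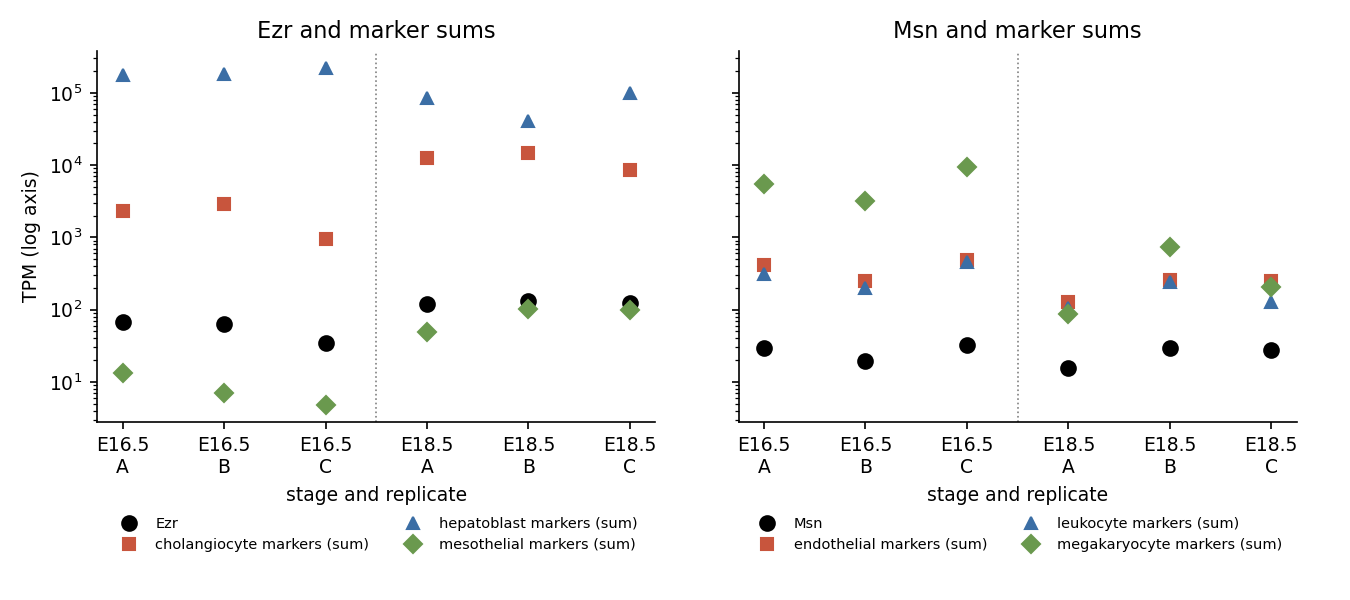
TPM on a log axis of Ezr with the summed cholangiocyte, hepatoblast and mesothelial markers (left) and of Msn with the summed endothelial, leukocyte and megakaryocyte markers (right) in each library. Ezr, the cholangiocyte sum and the mesothelial sum are lowest in replicate C at E16.5. Within each stage Msn and the megakaryocyte, endothelial and leukocyte sums have the same order, and Vwf makes up 339 of the 480 TPM of the endothelial sum in replicate C at E16.5.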

How the data were processed

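RNA was sequenced from sorted GFP-positive liver cells of Sox9-GFP embryos, with 3 pooled libraries per stage. The authors trimmed reads with Trimmomatic and aligned them to GRCm38 with HISAT2 2.1.0. Gene counts from HTSeq 0.5.4p3 were converted by the authors to the deposited TPM, which cover 52550 genes and sum to 1000000 per library. All 37 mitochondrial genes are listed at 0. Groups and replicate letters came from the sample labels. Names, positions and lengths came from GENCODE vM21, which held 52403 of the identifiers (49035 with the same version). Reads were recovered from TPM and length for depth, counting intervals (exact Clopper-Pearson) and an alternative test; all 180057 nonzero values of same-version genes were whole within 0.01.

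Stages were compared with limma 3.58.1 (R 4.3.3; lmFit and eBayes with trend) on log2(TPM + 1), a scale that understates the change of low genes, with a minimum mean of 1 TPM and stage as the only term. Pair ratios were compared by exact two-sided permutation over 20 splits (Python 3.11.15), and coding sequences were aligned with Biopython 1.88. The fit was tested on simulated data. Alternatives were median-of-ratios scaling, another pseudocount (0.1), no filter or a minimum mean of 5 TPM, quantile normalization, fits without trend or with robust estimation, a replicate block, voom on recovered reads and leaving out each library. The 8 genes and all lists were chosen with earlier results of these data known. Of each related list, the largest rise, the largest fall and the 2 highest genes were named, besides Slk, Stk10, Rock1, Pls1, Stk4 and Slc26a6, which were chosen after their values were seen. Profile likeness used genes whose mean reached 5 TPM. Replicates of a stage differed by more than counting noise (chi-square per degree of freedom 17.1 or more), and none was a duplicate deposit. Some marker results are not reported here.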

Additional observations from a re-analysis of the deposited data

How the results depend on the processing

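The count of genes called between the stages was 7000, and it was 4282 with no filter on low values, 3862 with median-of-ratios scaling, 3796 with quantile normalization, and from 1472 to 5686 when 1 library was left out, lowest without E18.5 replicate A. Of the called genes, 83.3% were higher at E18.5 as deposited and 39.5% after median-of-ratios scaling. The count among the 8 genes was 3; it was 5 under a minimum mean of 5 TPM, 5 with median-of-ratios scaling and 5 with a replicate block, and from 1 (Podxl, without E18.5 replicate A) to 4 when 1 library was left out. Whether the replicate letters pair the libraries was not settled. Deviations from the stage means correlated at -0.04, 0.08 and 0.14 for letters A, B and C, and not every library correlated best with its own letter. Over all pairs the correlations ran only from -0.146 to 0.14, too close together to decide on a shared batch. In the fit with a replicate block 7314 genes were called, 6174 of them among the 7000, and Slc9a3r1 (limma adjusted p = 0.0484) and Nf2 (0.0392) joined Ezr, Slc9a3r2 and Podxl. The log2 fold change of Rdx, 0.0027 as deposited, was -0.45 with median-of-ratios scaling, -0.062 with quantile normalization and -0.13 with voom, and from -0.047 to 0.10 when 1 library was left out. That of Msn ran from -0.40 to 0.10, and the log2 difference of Msn to Rdx from -0.46 to 0.15, when 1 library was left out, each positive without E18.5 replicate A. No other log2 fold change of the 8 genes and no other pair ratio changed direction in the settings run. Ezr was called in 14 of 15 settings, Slc9a3r2 in 10 of 14, Slc9a3r1 in 5, Nf2 in 4, Pdzk1 in 3, Rdx in 1 and Msn in 0. The cause of these changes was not tested. Depth limits Pdzk1 most, and 3 pools per stage limit every test.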
